A study of Mus musculus with 32 samples.

Results

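The scavenger and pattern phagocytic receptors described here are 10 genes of the deposited mouse table of 45706 genes, chosen by symbol: Marco, Msr1, Cd36, Scarb1, Olr1, Stab1, Mrc1, Mgl2, Clec7a and Cd93. All 10 were found. RNA sequencing had been run on 32 libraries of BV-2 cells, an immortalised mouse microglial line that the labels call glioblastoma. The cells were transfected with 20 nM of a microRNA mimic for 6 h, and received vehicle (VEH) or 10 ng/ml lipopolysaccharide (LPS), a bacterial cell wall component, for 24 h. A mimic is a short synthetic RNA that acts as the mature microRNA. The 8 groups of 4 libraries were VEH_scramble, VEH_miR-7a, VEH_miR-29a, VEH_miR-146a and the same mimics with LPS (LPS_scramble, LPS_miR-7a, LPS_miR-29a and LPS_miR-146a). Every group was therefore transfected, the scramble controls included. In each condition the 3 mimics were compared with the same 4 scramble libraries. The study calls the replicates independent experiments. The sample labels place LPS before transfection and the methods place it after.

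Scavenger receptors bind oxidised or acetylated lipoproteins, bacterial surfaces and dying cells, and pass the cargo to lysosomes. C-type lectin receptors read sugars: mannose on glycoproteins, galactose on tumour and host glycans, and glucans of fungal walls. In macrophages and microglia both families serve uptake without antibody, and several are used as markers of activation state, with Marco known as an inducible receptor and Mrc1 and Mgl2 as receptors of alternatively activated cells. The question put to the data was which of these receptors changed with LPS, and which changed with each mimic, with or without LPS.

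The mature microRNAs that the mimics stand for are shown because the mimics differ in their seed, bases 2 to 8, given in capitals (RefSeq, GRCm38.p6).
mmu-miR-7a-5p: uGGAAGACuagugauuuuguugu
mmu-miR-29a-3p: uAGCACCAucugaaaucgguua
mmu-miR-146a-5p: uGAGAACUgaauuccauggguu
The genome holds the first at chr13:58392841-58392863 (minus strand) and chr7:78888295-78888317 (plus strand), the second at chr6:31062673-31062694 (minus strand) and the last at chr11:43374435-43374456 (minus strand). No seed was shared. In the 3' UTRs of the 10 receptors, read from the GENCODE M21 transcripts on the sense strand, the complements of these seeds (GTCTTCC for miR-7a, TGGTGCT for miR-29a, AGTTCTC for miR-146a) were found in Cd93 alone. Cd93 has 1 match for miR-29a and 1 for miR-146a, each shown in capitals with its neighbours.
Cd93 with miR-29a, chr2:148440839-148440867, minus strand: gaaggagttacTGGTGCTaattacaatgg
Cd93 with miR-146a, chr2:148440071-148440099, minus strand: gtcatgaagaaAGTTCTCtctctctcttt
The matches begin at bases 387 and 1155 of a 3' UTR of 4603 bases. Of 21111 protein-coding genes with a 3' UTR, 12.9% hold the match for miR-7a, 14.1% that for miR-29a and 11.9% that for miR-146a. The 3' UTR of Marco is only 121 bases long. A match describes letters and is not a measured target.

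Levels are given as CPM, the count of a gene relative to the TMM-scaled library total, from estimated counts whose lost decimal marks had been restored, and for the receptors the restored reading had a probability of at least 0.9902 in all 32 libraries. Library totals ran from 1132071 to 9412942 counts in vehicle and from 2679399 to 20594588 counts under LPS. VEH_miR-7a replicates 2 to 4 stood apart: genes of small structural RNAs took 33.98% to 37.5% of their counts, against 4.03% in replicate 1 and 2.60% to 19.8% in the other 28 libraries. Receptor values for miR-7a that rest on them and are called or discussed below are also given without those 3 libraries, which leaves a single vehicle library, assumed to vary like the others. The 13 microglia and macrophage markers summed to 3299 to 7039 CPM, but the defining microglial genes were near 0, with Csf1r at most 1.21 CPM, Cx3cr1 at most 7.44, Tmem119 at most 8.27 and P2ry12 at most 14.4. By group this sum ran from 4753 to 7039 CPM in VEH_scramble and from 4168 to 4697 in LPS_scramble. It ran from 5054 to 5555 CPM in VEH_miR-29a and from 3299 to 3897 in LPS_miR-29a, whose libraries lay below those of both VEH_miR-29a and LPS_scramble. Of 8 endothelial markers, Kdr, Flt1 and Vwf carried a sum of 444 to 891 CPM while Cdh5, Tek, Cldn5, Tie1 and Pecam1 reached at most 3.77 CPM. Under LPS with scramble Kdr was higher (log2 fold change 0.74) and Vwf lower (-1.96). The 4 astrocyte markers, the 4 neuronal and the 4 fibroblast markers summed to at most 1.83, 3.10 and 2.44 CPM, and the 4 oligodendrocyte markers to 2.74 to 20.2 CPM. The part of these markers in the receptor results was not tested. In bulk RNA, fewer cells with a transcript and less of it per cell cannot be told apart.

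The receptors spanned a wide range of levels. Per kilobase of exon, which allows genes to be compared, Clec7a (Dectin-1, the receptor for fungal beta-glucan) was the most abundant in all 8 groups, at 97.5 CPM per kilobase in VEH_scramble. Mrc1, the macrophage mannose receptor, followed at 30.5, then Scarb1, the class B receptor for high-density lipoprotein, at 16.97 and Mgl2, a galactose-type lectin, at 15.8. Scarb1 and Mgl2 lie closer together than their spread between libraries. Cd93, a transmembrane protein with a C-type lectin domain, stood at 3.78, Stab1 (stabilin-1) at 2.13, Msr1, the class A macrophage scavenger receptor, at 0.914 and Cd36, the class B receptor for oxidised lipoprotein and fatty acids, at 0.341 CPM per kilobase. Olr1, the endothelial-type receptor LOX-1 for oxidised lipoprotein, was at 0.0509, and Marco, the collagenous class A receptor of macrophages, was at 0. In LPS_scramble Marco was second, at 24.8 CPM per kilobase, and only Clec7a, at 88.3, was above it.

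**Figure D1:**
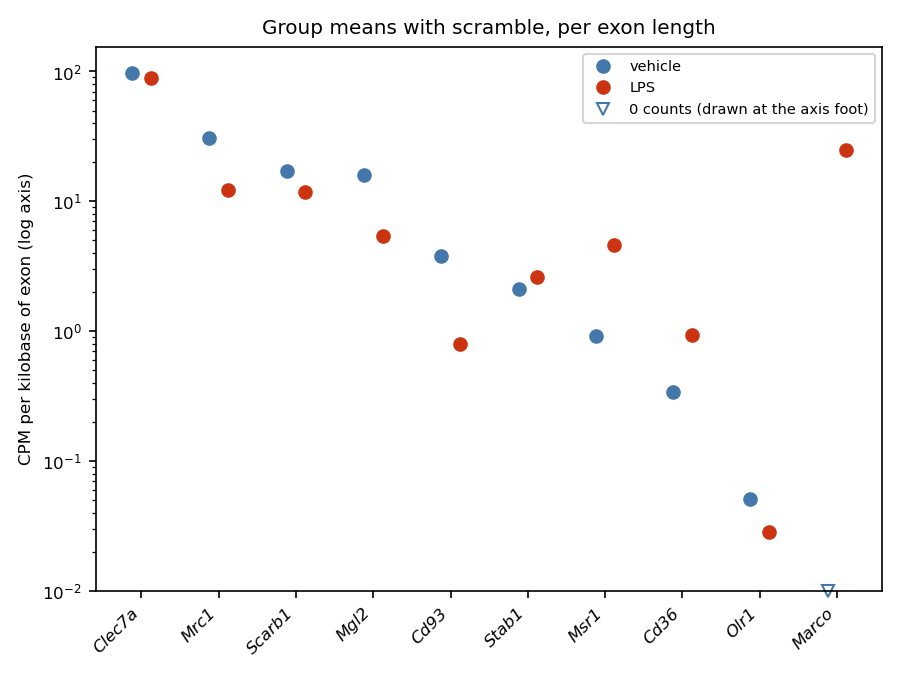
Mean level of each receptor with scramble mimic under vehicle (blue) and LPS (red), in CPM per kilobase of exon on a log axis, with n = 4 libraries a group. Marco, at 0 counts under vehicle, is drawn as an open triangle at the foot of the axis and stood second under LPS.

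With scramble mimic, LPS raised Marco and Msr1 and lowered Mrc1, Mgl2 and Cd93. These are 5 of the 9 receptors that passed the filter on low counts, while 18.2% of all 12157 genes tested were called in either direction. Olr1 was the receptor left out by the filter, here and in every other comparison. Between mimics within vehicle the filter also left out Marco, and Cd36 with miR-7a and miR-29a. A gene was called where its limma-voom test, adjusted over all genes tested by Benjamini-Hochberg, gave an adjusted p under 0.05. The groups of all 5 receptors did not overlap. The share of all genes without overlap was not computed, here or below, so such separation only describes the libraries.

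Marco (chr1:120474538-120505024, minus strand, 17 exons) gave the clearest response. It had 0 counts in all 4 libraries of VEH_scramble, and 67.4, 30.7, 53.0 and 40.1 CPM in replicates 1 to 4 of LPS_scramble, from 169, 408, 669 and 774 counts. Every LPS library was far above every vehicle library. Against the limit of 3 counts over the whole vehicle group, Marco was at least 277-fold higher with LPS (limma-voom adjusted p = 4.53e-06). Both VEH_miR-7a and VEH_miR-29a were also at 0 in every library, and VEH_miR-146a held a single count, in replicate 2. Marco was at least 23.7-fold higher with LPS in miR-7a cells and at least 101-fold higher in miR-29a cells, by the same limit. In miR-146a cells the ratio to that single count was 1215, with a 95% exact binomial interval of 218 to 48000 for counting error only. The adjusted p from limma-voom was 0.00128, 8.70e-06 and 1.23e-05 in these 3 comparisons. With VEH_miR-7a replicates 2 to 4 left out, Marco was at least 14.2-fold higher in miR-7a cells by the limit of 3 counts over the remaining vehicle library. Its fitted log2 fold change, which is no bound, was then 6.39 (SE 1.47) in place of 4.68 (SE 0.66), and its adjusted p was 0.118.

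Msr1 (chr8:39581685-39642673, minus strand, 10 exons) moved the same way from a measurable base. It was at 10.4, 3.99, 2.58 and 6.18 CPM in VEH_scramble and at 21.9, 30.02, 25.8 and 38.6 CPM in LPS_scramble. The 4 LPS libraries lay above the 4 vehicle libraries, and the means differed 5.02-fold (log2 fold change 2.41, SE 0.34, limma-voom adjusted p = 0.000756). Msr1 was called with each mimic as well: its log2 fold change was 1.84 in miR-7a cells, 2.28 in miR-29a cells and 1.25 in miR-146a cells (adjusted p from limma-voom 0.00591, 0.000112 and 0.00323). In VEH_miR-146a it stood at 19.2, 17.4, 10.7 and 11.7 CPM, above the mean of the other vehicle groups, and in LPS_miR-146a at 30.5, 31.4, 30.1 and 37.5 CPM. With VEH_miR-7a replicates 2 to 4 left out, the miR-7a value was 1.94 with an adjusted p of 0.116.

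The mannose receptor and the galactose-type lectin went down together. Mrc1 (chr2:14229392-14332057, plus strand, 30 exons, host of the microRNA gene Mir511) was at 327, 174, 143 and 132 CPM in VEH_scramble and at 90.5, 75.3, 75.1 and 68.5 CPM in LPS_scramble. The vehicle libraries were spread widely, with replicate 1 the highest, yet the lowest of them exceeded every LPS library. Its log2 fold change was -1.23 (SE 0.25, limma-voom adjusted p = 0.00688). Mgl2 (chr11:70130329-70137550, plus strand, 10 exons) was at 39.7, 30.1, 30.9 and 31.8 CPM in VEH_scramble and at 13.7, 10.4, 12.6 and 8.59 CPM in LPS_scramble. The groups were well apart, with a log2 fold change of -1.62 (SE 0.19, limma-voom adjusted p = 0.000215). The estimated count of Mgl2 was fractional in all 32 libraries, as was that of its close relative Clec10a, at 41.6 to 149 CPM. Reads shared between these genes may have been divided by estimation, so the level of Mgl2 is uncertain.

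Both lectins fell with LPS under every mimic. For Mrc1 the log2 fold changes were -1.41, -1.95 and -1.39 in miR-7a, miR-29a and miR-146a cells, and for Mgl2 they were -1.84, -2.43 and -1.32. Without VEH_miR-7a replicates 2 to 4 the miR-7a values were -1.64 for Mrc1 (adjusted p = 0.0216) and -2.06 for Mgl2 (0.0123). The LPS and vehicle libraries did not overlap in any of the 6 comparisons, and the largest adjusted p among them, with all libraries, was 0.00439 (limma-voom). These calls were kept under every alternative processing tried.

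Cd93 (chr2:148436640-148443563, minus strand, 2 exons) fell most among the receptors with scramble. It was at 25.4, 19.6, 27.2 and 28.7 CPM in VEH_scramble and at 6.38, 6.32, 4.59 and 3.94 CPM in LPS_scramble. All LPS libraries were lower, with means 4.75-fold apart (log2 fold change -2.34, SE 0.22, limma-voom adjusted p = 5.65e-05). The log2 fold change was -2.27 with miR-29a and -1.26 with miR-146a (limma-voom adjusted p = 0.000176 and 0.00220). With miR-7a it was -0.54 and did not pass the test (adjusted p = 0.270), and the groups overlapped. Without VEH_miR-7a replicates 2 to 4 it was -0.42 (adjusted p = 0.680).

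The other receptors did not pass the test between LPS and vehicle with scramble. Clec7a (chr6:129461591-129472779, minus strand, 6 exons, annotated as a polymorphic pseudogene in this build) averaged 257 ± 87.0 CPM in VEH_scramble and 233 ± 23.9 CPM in LPS_scramble (SD, n = 4), a log2 difference of -0.04 with a 95% interval of -0.60 to 0.53. The table lists a second Clec7a row that is at 0 in every library. Scarb1 (chr5:125277087-125341094, minus strand, 13 exons, overlapped on its own strand by Gm42633) averaged 144 ± 58.6 and 100.5 ± 26.6 CPM, and its log2 difference of -0.46 did not pass the test (adjusted p = 0.227). Replicate 2 of VEH_scramble, at 231 CPM, was far above the rest of its group. Same-numbered libraries of these groups deviated together, and with the replicate number as a block Scarb1 was called lower at -0.47 (limma-voom adjusted p = 0.0254, with 25.7% of genes called in that fit). Stab1 (chr14:31139013-31168641, minus strand, 69 exons, overlapped on the opposite strand by Nt5dc2, with the strand setting of the counting not given in the sources used here) differed by 0.45 (95% interval -0.19 to 1.09). Cd36 (chr5:17781690-17888801, minus strand, 16 exons) was at 0.540, 0.333, 0.861 and 3.16 CPM in VEH_scramble and at 1.99, 3.31, 2.22 and 6.01 CPM in LPS_scramble. These overlapping groups gave a log2 difference of 1.67 that missed the threshold (adjusted p = 0.0749), and without VEH_scramble replicate 4, the highest vehicle library, the value was 2.40 (adjusted p = 0.0393, 10.9% of genes called).

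**Figure D2:**
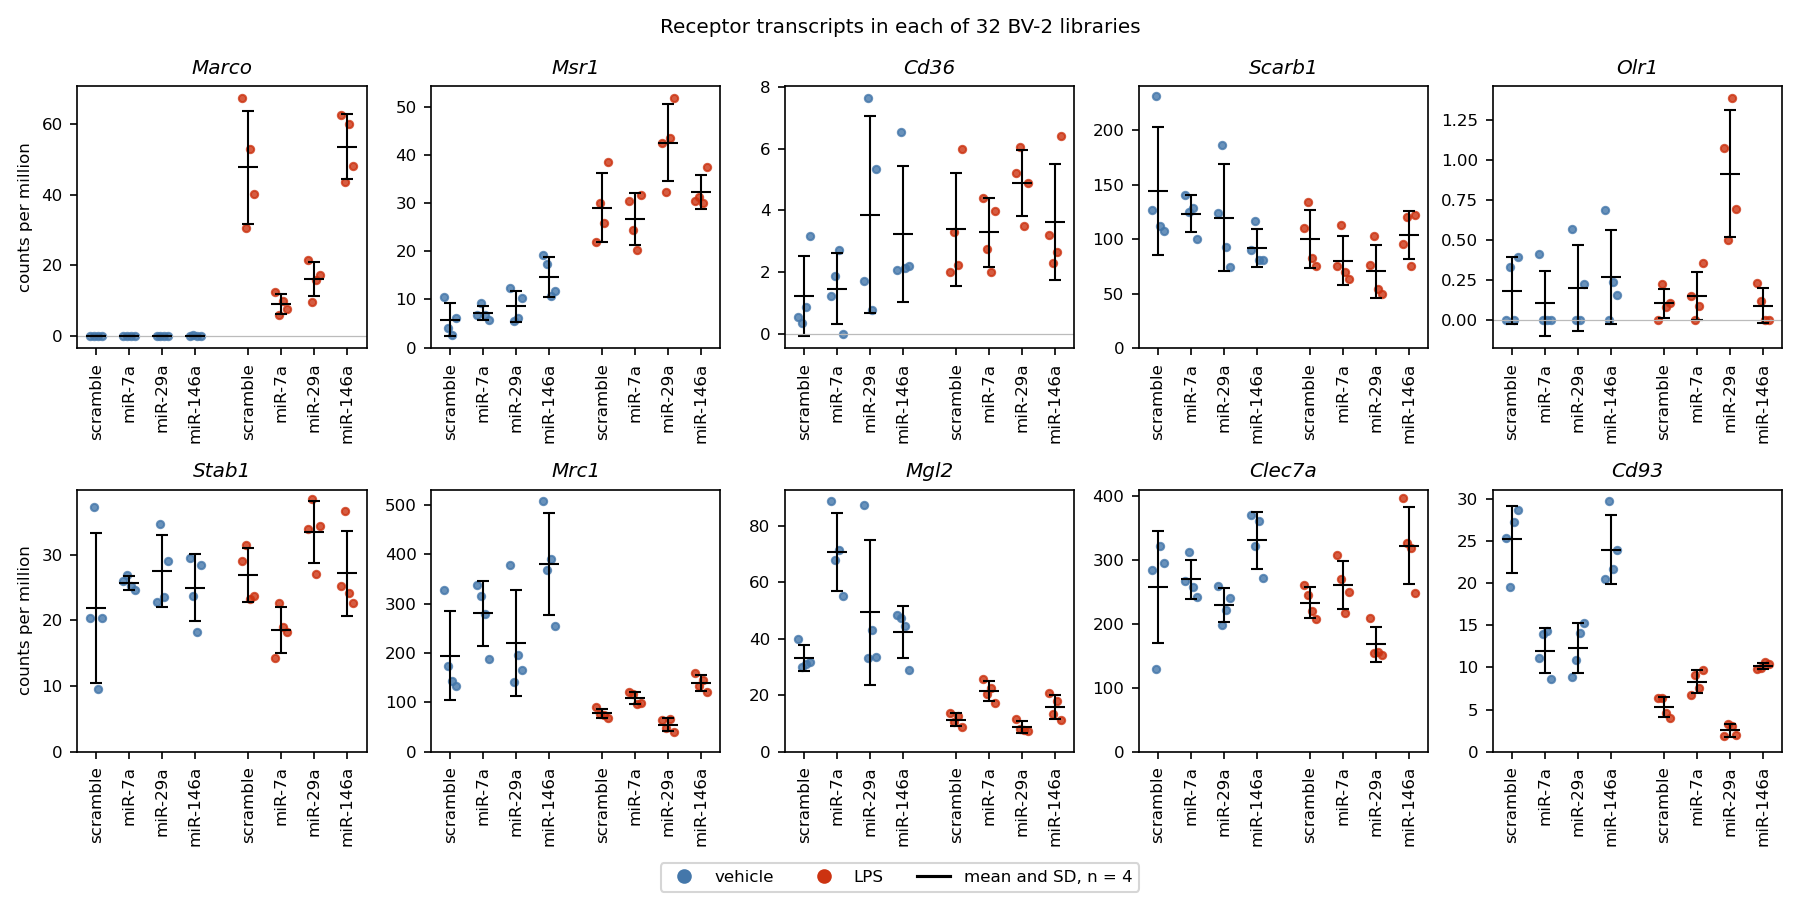
Level of the 10 receptors in every library, in CPM, with vehicle libraries in blue on the left of each panel and LPS libraries in red on the right, and bars for the mean and SD of 4 libraries. Marco lies at or near 0 in all 16 vehicle libraries and between 5.82 and 67.4 CPM in all 16 LPS libraries.

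With miR-7a, LPS called 5 of 9 receptors against 6.92% of all genes tested. They were Marco, Msr1, Mrc1, Mgl2 and Scarb1. Scarb1 was at 141, 125, 128 and 99.7 CPM in VEH_miR-7a and at 75.1, 113, 69.6 and 63.0 CPM in LPS_miR-7a. The groups overlapped through LPS replicate 2, and Scarb1 fell by 0.72 on the log2 scale with an adjusted p close to the threshold (limma-voom, 0.0471). The call was lost without any 1 of 7 libraries, VEH_miR-7a replicates 1, 2, 3 and 4 and LPS_miR-7a replicates 1, 3 and 4 (adjusted p = 0.148, 0.108, 0.129, 0.0575, 0.0750, 0.126 and 0.116), with edgeR's quasi-likelihood test (0.0559), in 1 fit of all 32 libraries (0.139) and with genes of uncertain values kept (0.0549). With VEH_miR-7a replicates 2 to 4 left out together, 2 receptors were called against 0.797% of genes, Mrc1 and Mgl2, and Scarb1 stood at -0.84 (adjusted p = 0.335).

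With miR-29a, 6 of 9 receptors were called against 26.8% of genes: Marco, Msr1, Mrc1, Mgl2, Cd93 and Clec7a. Clec7a was at 258, 197, 221 and 241 CPM in VEH_miR-29a and at 209, 154, 156 and 151 CPM in LPS_miR-29a. Only LPS replicate 1 reached into the vehicle range, and Clec7a fell by 0.47 on the log2 scale (SE 0.14, limma-voom adjusted p = 0.0300). Without VEH_miR-29a replicate 1, 3 or 4, or LPS_miR-29a replicate 2, 3 or 4, its adjusted p was 0.0725, 0.0671, 0.0755, 0.0614, 0.0846 or 0.0762, and in 1 fit of all 32 libraries it was 0.0668. Scarb1 differed by -0.70 without passing the test (adjusted p = 0.0816). It was called without VEH_miR-29a replicate 4 (-0.92, adjusted p = 0.0373, 21.6% of genes called) and without LPS_miR-29a replicate 2 (-0.92, 0.0221, 30.3%). It was also called by DESeq2 (-0.78, 0.0291, 30.5%), in 1 limma-voom fit of all 32 libraries (-0.69, 0.0471, 28.5%) and with the replicate block (-0.76, limma-voom adjusted p = 0.000296, 37.8%). With miR-146a, 5 of 9 receptors were called against 4.64% of genes, the same 5 as with scramble. Of the 11 microglia and macrophage markers tested, LPS called 2 higher and 4 lower with scramble, 2 and 2 with miR-7a, 1 and 5 with miR-29a, and 1 and 3 with miR-146a. Of the 3 endothelial markers tested, Kdr was higher and Vwf lower in all 4 comparisons, and Flt1 was lower with miR-29a and miR-146a. The part of these markers in the receptor results was not tested.

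**Figure D3:**
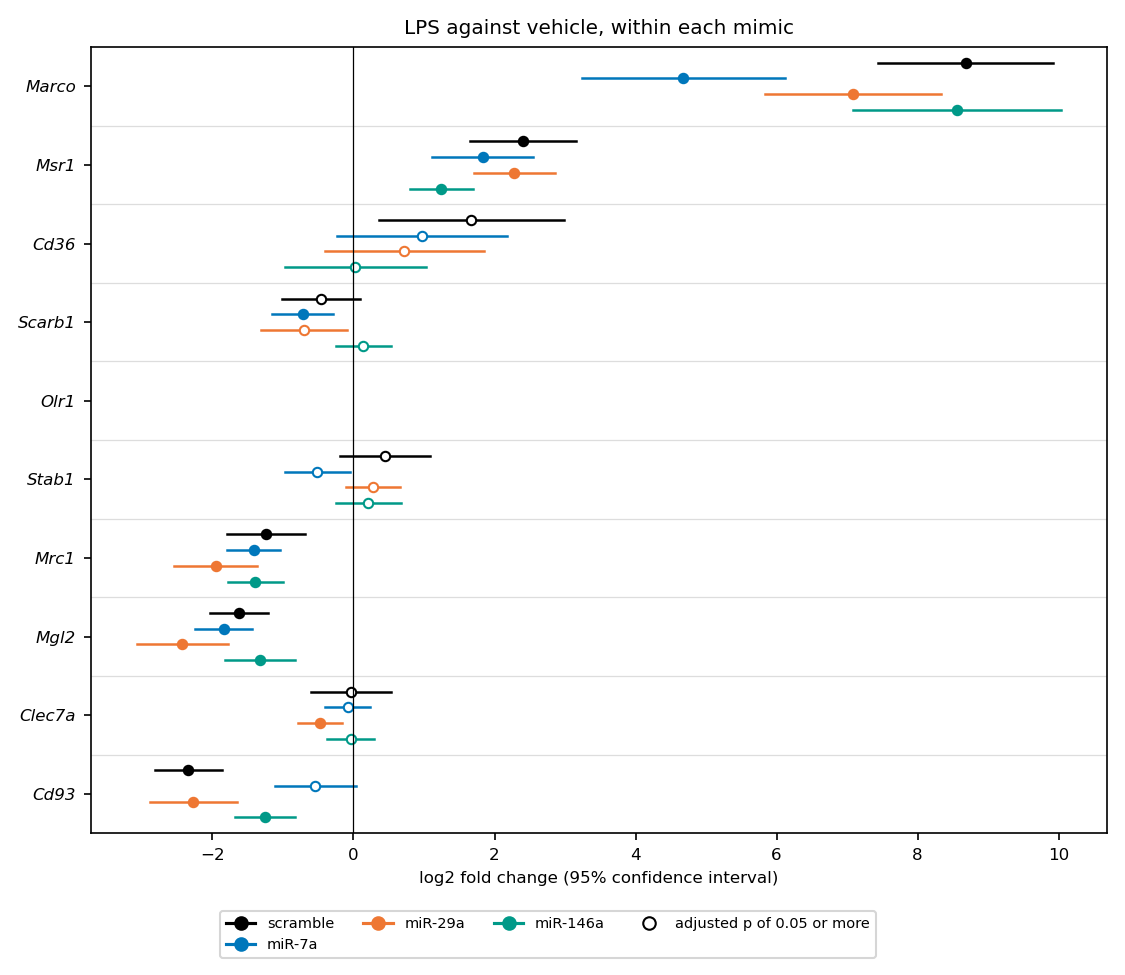
Log2 fold change of each receptor between LPS and vehicle under each mimic, as points with 95% intervals from limma-voom, filled where the adjusted p was under 0.05. Fitted values of Marco depend on the small count added before taking logs and are no bounds, Mrc1 and Mgl2 lie below 0 under all 4 mimics, and Olr1 was not tested.

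Under LPS, 4 receptors were called with at least 1 mimic. miR-7a lowered Marco and raised Mgl2, 2 of 9 receptors against 2.94% of genes. miR-29a lowered Marco, 1 of 9 against 4.94%, and miR-146a raised Mrc1 and Cd93, 2 of 9 against 2.43%. Of the 11 microglia and macrophage markers tested, limma-voom called 1 with miR-7a (Adgre1, lower), 2 with miR-29a (Tyrobp and Laptm5, both lower) and 1 with miR-146a (Laptm5, higher). Of the 4 endothelial markers tested, it called Vwf higher with miR-146a. Their part in the receptor results was not tested.

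Marco was at 12.3, 5.82, 10.0 and 7.70 CPM in LPS_miR-7a and at 21.4, 9.68, 15.9 and 17.3 CPM in LPS_miR-29a. Both groups lay wholly below the 30.7 to 67.4 CPM of LPS_scramble. The mean was 5.33-fold lower with miR-7a (log2 fold change -2.33, SE 0.28, limma-voom adjusted p = 0.00216) and 2.98-fold lower with miR-29a (-1.53, SE 0.27, limma-voom adjusted p = 0.0106). LPS_miR-146a, at 62.7, 43.7, 59.9 and 48.2 CPM, overlapped LPS_scramble, and its log2 difference was 0.33 with a 95% interval of -0.14 to 0.80. The calls for miR-7a and miR-29a were kept under every alternative processing and without any single library.

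Mgl2 was at 25.7, 20.5, 22.6 and 17.3 CPM in LPS_miR-7a. Every library lay above the 8.59 to 13.7 CPM of LPS_scramble, and Mgl2 rose by 1.00 on the log2 scale (SE 0.19, limma-voom adjusted p = 0.0188). The adjusted p was 0.0919 without LPS_scramble replicate 4 and 0.0628 without LPS_miR-7a replicate 3. Mrc1, another sugar receptor, was at 121, 117, 97.2 and 98.0 CPM in LPS_miR-7a, also above all LPS_scramble libraries. Its log2 difference of 0.52 missed the threshold (adjusted p = 0.0581), but it was called by DESeq2 at 0.50 (adjusted p = 0.0159, 6.18% of genes called) and with the replicate block at 0.50 (limma-voom adjusted p = 0.00613, 9.43%). Clec7a overlapped LPS_scramble (0.17, limma-voom adjusted p = 0.575). Stab1 lay below every LPS_scramble library but was not called by the main test (-0.50, limma-voom adjusted p = 0.151).

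Mrc1 was at 158, 132, 145.96 and 122 CPM in LPS_miR-146a, and every library exceeded the highest LPS_scramble library. It rose 1.80-fold (log2 fold change 0.90, SE 0.12, limma-voom adjusted p = 0.00592). Cd93 was at 9.78, 9.99, 10.6 and 10.4 CPM in LPS_miR-146a, the narrowest spread of its 8 groups, against 3.94 to 6.38 CPM in LPS_scramble. It rose 1.92-fold (log2 fold change 1.06, SE 0.21, limma-voom adjusted p = 0.0281). The groups did not overlap, but the call was lost without LPS_scramble replicate 1, 3 or 4 or LPS_miR-146a replicate 1, 2 or 3 (adjusted p = 0.0574, 0.0766, 0.134, 0.0688, 0.0520 and 0.0998) with edgeR's quasi-likelihood test (0.0559) and without the filter on low counts (0.0792). Clec7a, at 396, 326, 318 and 248 CPM, overlapped LPS_scramble and differed by 0.46 (adjusted p = 0.114). It was called without LPS_miR-146a replicate 4 (0.58, adjusted p = 0.0499, 2.17% of genes called) and without the filter on low counts (0.53, 0.0415, 0.878%). It was also called by DESeq2 (0.48, 0.0449, 5.91%) and with the replicate block (0.46, limma-voom adjusted p = 0.00615, 11%).

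By the main limma-voom test, which has no replicate block, no sugar receptor passed for miR-29a under LPS. Mrc1 was at 64.7, 46.8, 65.5 and 40.4 CPM and Clec7a at 209, 154, 156 and 151 CPM in LPS_miR-29a. All Mrc1 libraries were below LPS_scramble, while those of Clec7a overlapped at the edge. The log2 differences were -0.49 and -0.46 (adjusted p = 0.126 and 0.0746). Mgl2 overlapped LPS_scramble as well (-0.33, adjusted p = 0.375). DESeq2 called 3 receptors in place of 1, against 8.08% of genes: Marco, Clec7a (-0.47, adjusted p = 0.0300) and Cd93 (-0.98, 0.0366). With the replicate block 4 receptors were called, against 10.7% of genes: Marco, Mrc1 (-0.50, 0.0198), Clec7a (-0.47, 0.00577) and Scarb1 (-0.52, 0.00517). Without LPS_miR-29a replicate 1 Clec7a was called at -0.59 (limma-voom adjusted p = 0.0334, 2.79% of genes called).

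Olr1 (chr6:129485244-129507165, minus strand, 8 exons) was the least abundant receptor per kilobase in the 4 LPS groups. Its counts were 6, 7, 22 and 5 in LPS_miR-29a and 0 to 4 in the other 28 libraries. In CPM, LPS_miR-29a stood at 1.08, 0.498, 1.39 and 0.696, above every library of LPS_scramble, which reached 0.226 at most. The main test left Olr1 out. Without the filter on low counts it was higher in LPS_miR-29a by 2.46 on the log2 scale (limma-voom adjusted p = 0.0313, with 2.07% of genes called in that fit), a value that rests on 40 counts against 6.

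**Figure D4:**
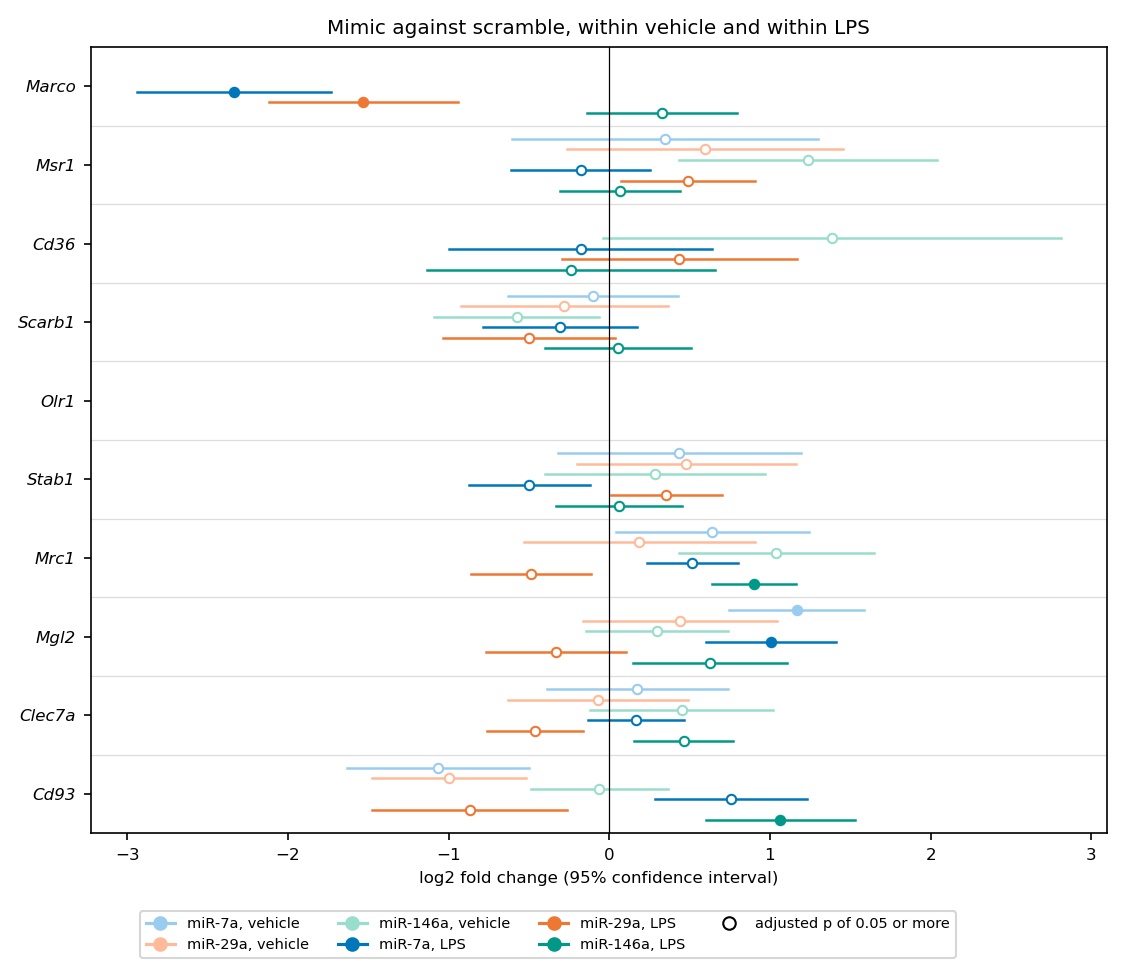
Log2 fold change of each receptor between each mimic and scramble, as points with 95% intervals from limma-voom, in light colours within vehicle and dark colours within LPS, filled where the adjusted p was under 0.05. Marco under LPS lies at -2.33 with miR-7a and at -1.53 with miR-29a. A receptor with no point was not tested.

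Without LPS few receptors were called against scramble by the main test. With miR-7a 1 of 7 receptors tested (all but Olr1, Marco and Cd36) was called, against 0.228% of genes. It was Mgl2, at 88.7, 67.9, 71.4 and 55.0 CPM against 39.7, 30.1, 30.9 and 31.8 CPM in VEH_scramble. The groups did not overlap, and Mgl2 rose by 1.17 on the log2 scale (SE 0.19, limma-voom adjusted p = 0.0302). The call was lost with VEH_miR-7a replicates 2 to 4 left out together (1.41, adjusted p = 0.655), without VEH_scramble replicate 2, 3 or 4 (0.0618, 0.109 and 0.136) and without VEH_miR-7a replicate 2 or 3 (0.122 and 0.118), and without the filter on low counts (0.0654). The rise of Mgl2 with miR-7a did not differ detectably between LPS and vehicle (interaction -0.15, 95% interval -0.70 to 0.40, and -0.44 without VEH_miR-7a replicates 2 to 4).

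With miR-29a and vehicle 0 of the same 7 receptors were called, against 0.00868% of genes. By limma-voom 1 receptor had an unadjusted p under 0.05, edgeR's quasi-likelihood test called 0 and DESeq2 called 1, Cd93, against 0.86% of genes. With miR-146a and vehicle 0 of 8 (all but Olr1 and Marco) were called, against 2.49% of genes. There 3 receptors had an unadjusted p under 0.05 (limma-voom), edgeR's quasi-likelihood test called 0 and DESeq2 called 2, Msr1 and Mrc1, against 11% of genes. Mrc1 was at 508, 368, 389.7 and 255 CPM in VEH_miR-146a, which overlapped VEH_scramble through its replicate 1. Without that scramble library Mrc1 was called at 1.37 (limma-voom adjusted p = 0.00608) and Msr1 at 1.61 (0.0279), against 10.8% of genes, where with it they stood at 1.04 and 1.24 (adjusted p = 0.0634 and 0.0754). Both were also called in 1 fit of all 32 libraries (1.01 and 1.23, limma-voom adjusted p = 0.00876 and 0.0180, 12.8% of genes called), and Mrc1 without the filter on low counts (0.99, 0.0127, 1.72%). With the replicate block Msr1, Mrc1 and Scarb1 were called, among 903 genes, though the replicate numbers did not pair these libraries by the rule used here. For Mrc1 the effect of miR-146a did not differ detectably between LPS and vehicle (interaction -0.16, 95% interval -0.86 to 0.55).

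By the main test Cd93 was the only receptor whose response to a mimic was called different between LPS and vehicle, and the call was not firm. In vehicle it was at 11.1, 13.9, 14.3 and 8.67 CPM with miR-7a and at 8.86, 10.9, 14.1 and 15.3 CPM with miR-29a. Both groups lay below all 4 libraries of VEH_scramble, where the lowest was 19.6 CPM, but the log2 differences of -1.06 and -0.995 did not pass the test over all genes (limma-voom adjusted p = 0.141 and 0.160). DESeq2 called both, at -1.04 (adjusted p = 0.0321, 2.33% of genes called) and -1.01 (0.0117), as did 1 limma-voom fit of all 32 libraries, at -1.09 (0.0187, 1.44%) and -0.99 (0.00567, 0.781%). Without VEH_miR-7a replicates 2 to 4 the miR-7a value was -1.19 (adjusted p = 0.985). Under LPS it was at 6.75, 9.11, 7.57 and 9.74 CPM with miR-7a, above every LPS_scramble library, and at 1.80, 3.27, 3.03 and 1.95 CPM with miR-29a, below every LPS_scramble library. These log2 differences, 0.76 and -0.87, did not pass the test either (adjusted p = 0.0853 and 0.0984). Both were called in 1 limma-voom fit of all 32 libraries (0.76, adjusted p = 0.0244, 3.7% of genes called, and -0.88, 0.0370, 5.1%), and the latter by DESeq2, as given above.

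The test of the difference itself compared the effect of a mimic under LPS with that under vehicle. For miR-7a it called 1 of 9 receptors, Cd93, against 0.150% of genes, with a log2 difference of 1.86 (SE 0.32, limma-voom adjusted p = 0.0196). The call was lost without VEH_scramble replicate 4 (0.0542), LPS_scramble replicate 3 (0.0594) or 4 (0.0826) or LPS_miR-7a replicate 2 (0.0594), and with VEH_miR-7a replicates 2 to 4 left out (1.93, adjusted p = 0.263) or no filter on low counts (1.80, 0.122). For miR-29a the test called 0 of 9 receptors, against 0.0577% of genes, and the value of Cd93 was 0.11 (95% interval -0.62 to 0.84). For miR-146a it called 0 of 9, against 0.0164% of genes, and Cd93 stood at 1.11 (95% interval 0.53 to 1.70, limma-voom adjusted p = 0.329). At an unadjusted p under 0.05 these 2 tests gave 1 and 2 receptors, and edgeR's quasi-likelihood test called 0 in both. Marco had a fitted interaction of -3.87 with miR-7a (limma-voom adjusted p = 0.436), or -2.31 without VEH_miR-7a replicates 2 to 4. Both vehicle groups were at 0 counts, so these values depend on the small count added before taking logs and on library depth. They are no bounds. The replicate block called Marco here as well, as given in the last section, with the same limit.

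Cd93 is also the receptor with seed matches, shown above, for miR-29a and miR-146a and none for miR-7a. In vehicle it was lower than scramble in all 4 libraries with miR-29a, and also with miR-7a. Under LPS it was below every LPS_scramble library with miR-29a (ratio of means 0.473) and above every one with miR-7a (1.56). With miR-146a its vehicle libraries, at 20.6, 29.8, 21.7 and 24.0 CPM, overlapped VEH_scramble (log2 difference -0.06, 95% interval -0.49 to 0.36), and under LPS it was higher. Among these differences the main test called only that rise, and the call was lost under 8 of 17 alternatives.

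Genes that work beside these receptors were counted with scramble under LPS, where the median log2 fold change over all genes tested was 0.01 and 18.2% of genes were called. Of 15 other scavenger receptors 9 were tested, with a median of -0.27: Cd14, the LPS co-receptor, was higher (0.79), and Colec12 (-0.88) and Stab2 (-1.40), receptors of the collectin and stabilin types, were lower. Of 15 other C-type lectin receptors 9 were tested, with a median of 0.74, and 5 were higher and 0 lower, among them Clec4e (1.90), the Mincle receptor for mycobacterial glycolipid, Clec4n (1.68), which is Dectin-2, and Clec4a1 (2.74). The signalling genes downstream of Dectin-1 were all 14 tested, with a median of 0.05, and 2 were higher and 2 lower. Among them the kinase gene Lyn was higher (0.60) and the transcription factor genes Nfatc2 (-1.01) and Nfatc1 (-0.56) were lower. Of 18 genes that handle lipid after uptake 17 were tested, with a median of -0.06, and 1 was higher and 3 were lower: Apoe, the lipoprotein of glia and macrophages (-1.27), Abcg1, a cholesterol exporter (-0.58), and Mylip, which targets the LDL receptor for degradation (-0.51). Of 14 genes of alternative activation 9 were tested, with a median of -0.67, and 0 were higher and 3 lower, among them F13a1 (-4.82) and the chemokine gene Ccl24 (-2.66), in the same direction as Mrc1 and Mgl2.

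The same lists were counted for the mimics under LPS, where 2.94% of all genes were called for miR-7a, 4.94% for miR-29a and 2.43% for miR-146a. Alternative activation had 2 of 9 higher and 0 lower with both miR-7a and miR-146a, and 1 of 10 higher and 2 lower with miR-29a. The other C-type lectin receptors had 1 of 11 higher for miR-7a, 1 of 10 lower for miR-29a and 0 of 11 called for miR-146a, and the other scavenger receptors had 1, 2 and 0 of 9 lower. Dectin-1 signalling had 1 of 14 lower with each of miR-7a and miR-29a and 0 with miR-146a, and lipid handling had 1 of 17 lower with miR-29a and 0 with the others. The medians of the 5 lists lay between -0.27 and 0.68, against -0.01 to 0.01 over all genes tested.

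The genes whose levels followed the receptors most closely over the 32 libraries were sought among 10056 genes with at least 5 CPM on average. The coefficients are descriptions: the libraries fall into vehicle and LPS groups, so a gene that moves with LPS shares much of any other such pattern. Marco was most like the acute-phase genes Saa3 (Pearson r = 0.964) and Lcn2 (0.955). Msr1 was most like Rnf149 (0.906) and Smc5 (0.901). Mrc1 was most like the adhesion gene Cadm1 (0.924), and Mgl2 most like the cyclooxygenase gene Ptgs1 (0.924) and Cd83 (0.916). Cd93 followed the inhibitory receptor gene Cd300a (0.920) and Arl4c (0.919). The coefficients of Scarb1, with Pik3r2 (0.869) and Ppp2r4 (0.859), and of Clec7a, with Entpd1 (0.817) and Rnf13 (0.815), were lower.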

How the data were processed

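The authors prepared ribosomal-RNA-depleted total RNA libraries and quantified them on GRCm38 with nf-core rnaseq 3.0, and the submitters' processing notes name limma and edgeR. The values the authors deposited are estimated counts per gene from that workflow, and their decimal marks were lost. All 32 value columns were matched to samples by name. Each value was read with 0 to 3 lost decimals by a probability model fitted across genes and libraries. Lost decimals were given to 28.6% of values above 0, and 95.6% of these got 3. A gene was left out of a comparison where any reading had a probability under 0.9, as for 1.20% of values. The model was revised to its version 3 after library totals and last digits were seen, before any test here but with earlier results of these data known, and its assumed shares of whole numbers among low values were set by hand. Of true last digits about 10% should be 0, which leaves fewer than 3 decimals. Among values with a probability of 0.9 or more, the share with fewer than 3 was 5.00% from 1 count upwards, 7.40% from 10, 9.15% from 30 and 9.84% from 100, and over every restored value it was 6.80%, 9.78%, 10.3% and 10.3%. These limits were compared after the first was seen, so low counts remain less sure.

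Genes were filtered with filterByExpr, scaled by TMM and tested with limma-voom (limma 3.58.1, edgeR 4.0.16, R 4.3.3) on the 8 libraries of each of 10 pairs of groups, or the 16 of each of 3 interactions, with Benjamini-Hochberg adjustment over all genes tested. Alternatives were edgeR's quasi-likelihood test, DESeq2 1.42.0, other scalings, filters, sample sets and restoration limits, the replicate number as a block, and each library left out. On data simulated for LPS_scramble against VEH_scramble (12000 genes, 200 changed) 88 of 100 2-fold and 98 of 100 4-fold changes were called, with 5.08% false calls. The changed genes were drawn only from genes well counted in every library compared. All genes had the same fixed spread, and decimals were given at the shares the restoration had found. Cd36, with counts down to 1 in VEH_scramble, lay lower, so these rates do not carry over to receptors with few counts or wide spread. Pairing was judged by whether every pair of same-numbered libraries deviated together (correlation over 0.1). It held for LPS against vehicle with scramble (lowest 0.173) and miR-29a (0.189) and for the 3 mimics under LPS (0.256, 0.283 and 0.154). The limit for a count of 0 was 3 counts, and intervals for counts cover counting error only. The members, lists and rules for named genes (all 10 receptors, up to 3 called genes a list, 2 most alike genes a receptor) were chosen with earlier results of these data known. A gene that these rules name is not reported here. Gene positions and 3' UTRs came from GENCODE M21 and microRNA sequences from RefSeq.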

Additional observations from a re-analysis of the deposited data

Results flagged for a closer look

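In 6 of the 80 groups of 4 values (10 receptors in 8 groups, 77 of them with any spread) the highest library stood far from the others by Dixon's criterion, where chance gives about 1 in 20 for normally distributed values. They were Marco in VEH_miR-146a (0.172 CPM, 1 count, the others at 0), Cd36 in VEH_miR-146a (6.54 CPM), Scarb1 in VEH_scramble (231 CPM), Olr1 in VEH_miR-7a (0.411 CPM, 2 counts, the others at 0), Clec7a in LPS_miR-29a (209 CPM) and Mgl2 in LPS_miR-29a (11.6 CPM). A group with 1 library above 0 and the others at 0 always meets the criterion, as for Marco and Olr1 here. The effect of miR-7a on Cd93 differed between LPS and vehicle by 1.86 on the log2 scale (limma-voom adjusted p = 0.0196).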

How the results depend on the processing

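Of 28 receptor calls, 20 were kept under every alternative and 8 were lost under at least 1, and 0 of 490 alternative values reversed. Leaving out VEH_miR-7a replicates 2 to 4 was chosen after seeing the data. It left 107 genes and 2 receptors called for LPS in miR-7a cells, 1 gene and 0 receptors for miR-7a in vehicle and 7 genes and 0 receptors for the miR-7a interaction. For LPS in miR-7a cells 816 genes became 1298 with DESeq2, 1745 with the replicate block and 8069 without the low-count filter. For LPS in miR-146a cells 554 became 836 with DESeq2, 875 in 1 fit of all libraries and 848 with the block. Under LPS, miR-7a went from 379 to 795 (DESeq2) and 1214 (block), miR-29a from 648 to 1039 and 1397, and miR-146a from 303 to 679 and 1371, or 184 with edgeR's quasi-likelihood test. Receptors called for miR-29a under LPS were 3 with DESeq2, 2 without the filter, 2 in 1 fit of all libraries and 4 with the block, and for miR-146a 1 with edgeR's quasi-likelihood test.

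In vehicle, miR-7a went from 25 genes to 49 (edgeR), 255 (DESeq2), 38 (no filter), 175 (all libraries) and 351 (block), and from 1 receptor to 2, 0, 2 and 2 under the last 4. miR-29a went from 1 gene to 3, 99, 4, 95 and 72, or 2 with uncertain values kept, and from 0 receptors to 1 with DESeq2, all libraries and the block. miR-146a went from 289 genes to 1258 (DESeq2), 462 (no filter), 1561 (all libraries) and 903 (block), and from 0 receptors to 2, 1, 2 and 3. The miR-7a interaction went from 18 genes to 43 with the block (2 receptors) and 32 with uncertain values kept, and to 0 receptors without the filter. The miR-29a interaction went from 7 to 20 with the block, and the miR-146a interaction from 2 to 1 without the filter, in all libraries or at a probability of 0.99, and 4 with uncertain values kept. The causes were not tested.

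Leaving out 1 library gave 1148 to 2922 genes for LPS with scramble (5 to 6 receptors), 454 to 854 with miR-7a (4 to 5), 2200 to 3675 with miR-29a (5 to 6) and 288 to 510 with miR-146a (5). Under LPS it gave 68 to 397 genes for miR-7a (1 to 2 receptors), 186 to 729 for miR-29a (1 to 2) and 33 to 277 for miR-146a (1 to 3). In vehicle it gave 14 to 248 (0 to 1), 0 to 6 (0) and 14 to 1289 (0 to 2), and for the interactions 11 to 148 (0 to 1), 6 to 9 (0) and 2 to 82 (0). In the comparisons whose numbers did not pair the libraries, the block added Cd93 for miR-7a (-1.03, adjusted p = 0.0276) and miR-29a (-1.01, 0.0451) in vehicle, Msr1, Mrc1 and Scarb1 for miR-146a in vehicle (1.31, 1.03 and -0.59) and Marco to the miR-7a interaction (-3.92, 0.0138). The value of Marco rests on vehicle groups at 0 counts and is no bound. No other receptor call changed with the block, beside those given with the results. Totals down to 1132071 counts limit what could be seen for Cd36 and Olr1.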
